A study of Mus musculus with 5 samples.

Results

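The natriuretic peptide genes, their receptors, the peptide-processing protease Corin and the ligand gene Bmp10 were followed in the embryonic mouse heart. RNA of the atrioventricular canal (AVC) was compared with and without conditional deletion of Sox9. The 8 genes (Nppa, Nppb, Nppc, Npr1, Npr2, Npr3, Corin and Bmp10) were chosen by gene symbol, with their ratio between the genotypes already known from the same values. Each of the 8 had 1 row among the 14697 transcripts of the deposited expression table, although RefSeq lists 2 curated mRNAs for Nppb, Npr2 and Corin and 3 for Npr3. All ratios below are therefore descriptions and carry no test.

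RNA came from AVCs dissected at embryonic day 12.5 on the C57BL/6 strain. The controls, labelled WT, were Sox9fl/fl:+/+ and so carried the floxed Sox9 alleles without Cre. The mutants, labelled Sox9 cKO, were Sox9fl/fl:Tie2-Cre/+. Tie2-Cre acts in endothelial cells, their cushion mesenchyme descendants and blood lineages and, as far as is known, not in cardiomyocytes. Per the labels, embryos were pooled after a check of how far Sox9 had been deleted, and the tissue held mesenchyme, endothelium and myocardium. The labels state 2 libraries per genotype, but the table gives 1 merged value for each. The spread between replicates and the read depth are unknown, so no difference below can be set against an error.

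Atrial natriuretic peptide (ANP, from Nppa) and B-type natriuretic peptide (BNP, from Nppb) are hormones made by heart muscle, and C-type natriuretic peptide (CNP, from Nppc) acts mostly locally. ANP and BNP signal through NPR1 and CNP through NPR2, both receptors that make cyclic GMP, whereas NPR3 lacks the cyclase and removes the peptides from the cell surface. In the mouse embryo Nppa marks the working myocardium of the chambers and is kept low in AVC myocardium, where TBX2 and TBX3 act as repressors. Bmp10 encodes a bone morphogenetic protein of trabecular myocardium that is needed for growth of the ventricular wall.

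The sequences before the starts of Nppa, Nppb and Bmp10 are shown because these were the 3 most abundant ligand genes and all stood higher in Sox9 cKO. They are the 250 bases before the annotated start, from the RefSeq promoter table (build GRCm38.p6, whereas the submitters' processing notes name mm9). Each is on the + strand and is written 5′ to 3′. Nppa lies at chr4:148000472-148000721, Nppb at chr4:147985650-147985899 and Bmp10 at chr6:87428744-87428993. Capitals mark matches, on either strand, to any of 9 motifs: T-box (GTGTGA), NKX2-5 (AAGTG), GATA factors (GATAA), the M-CAT element of TEAD factors (GGAATG), the CArG box of SRF, SOX (ACAAT), AP-1 (TGANTCA), the hypoxia response element (ACGTG) and the TATA box (TATAAA). No matches overlapped in these 3 sequences.
Nppa: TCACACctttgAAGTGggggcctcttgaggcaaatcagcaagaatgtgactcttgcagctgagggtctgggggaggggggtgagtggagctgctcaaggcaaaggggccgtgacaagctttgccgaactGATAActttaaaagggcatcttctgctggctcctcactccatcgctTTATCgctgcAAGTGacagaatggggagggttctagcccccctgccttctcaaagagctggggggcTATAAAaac
Nppb: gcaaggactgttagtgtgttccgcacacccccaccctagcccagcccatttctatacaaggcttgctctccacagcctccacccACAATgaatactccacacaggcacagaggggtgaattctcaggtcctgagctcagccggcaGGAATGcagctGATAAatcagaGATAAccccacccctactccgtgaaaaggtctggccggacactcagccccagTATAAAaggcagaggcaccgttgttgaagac
Bmp10: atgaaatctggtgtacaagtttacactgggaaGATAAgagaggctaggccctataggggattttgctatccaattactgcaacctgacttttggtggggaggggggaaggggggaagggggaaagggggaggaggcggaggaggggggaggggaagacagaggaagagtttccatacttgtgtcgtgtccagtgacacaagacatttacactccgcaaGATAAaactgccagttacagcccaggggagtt

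GATAA was present in these 3 windows, with 2 matches in each, and in none of the windows of the other 5 genes. Of 32851 promoter windows of the same length, 22.6% held at least 1 match and 4.28% held at least 2. Nppa also held 1 T-box match, at bases 250 to 245 before the start, and 2 NKX2-5 matches, at bases 239 to 235 and 65 to 61. A T-box match was found in 12.3% of all windows, an NKX2-5 match in 40.7% and both in 5.59%. Nppb held 1 M-CAT match at bases 105 to 100 (12.6% of all windows) and 1 SOX match at bases 166 to 162 (27.7%). The TATA letters were found in Nppa, Nppb and Nppc, against 12.4% of all windows. Npr2 held 1 SOX match and Corin 1 match to the hypoxia response element (16.6% of all windows). No window of the 8 genes held a CArG (1.47% of all windows) or AP-1 match (6.75%). A match describes these letters only, and binding was not measured by it.

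**Figure D1:**
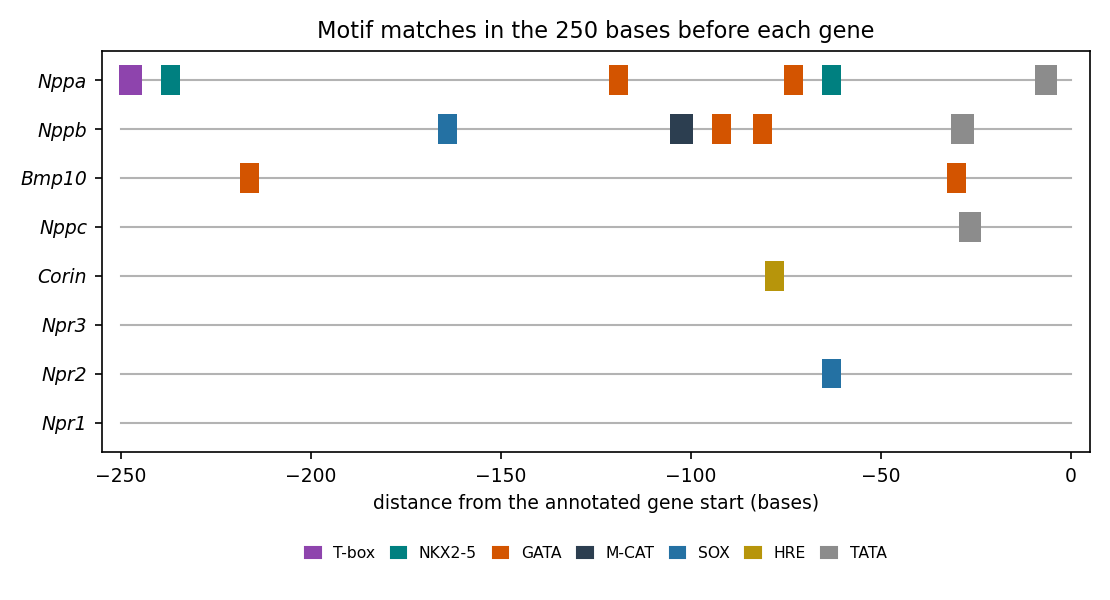
Positions of motif matches in the 250 bases before the annotated start of each of the 8 genes, with distance from the start in bases on the x axis and 1 line per gene. Coloured boxes are matches, drawn to scale. GATA matches lie in Nppa, Nppb and Bmp10, with 2 in each, and the lines of Npr1 and Npr3 hold no match.

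Sox9, the targeted gene, stood at 36.7 nFPKM in WT and 14.7 nFPKM in Sox9 cKO. The unit nFPKM is FPKM (fragments per kilobase and mapped total) after a further normalization by the authors. FPKM is scaled for transcript length, and levels of different genes are set side by side below on that ground. The further normalization and the choice of transcript are not given, so ratios between genes are approximate. Ratios are log2(cKO + 1) minus log2(WT + 1), less the all-transcript median of -0.11, and are called relative log2 ratios. They were taken over the 13793 transcripts that reached 1 nFPKM in WT or in Sox9 cKO, of which the middle 90% lay between -0.45 and 0.49. Without subtraction of the median, the transcripts at least 2-fold apart divided into 82 higher and 135 lower ones, and with it into 115 and 93, so that the share of higher ones went from 37.8% to 55.3%. The pools also differed in other gene lists. The medians of the erythroid, hypoxia response, immediate early and epicardial lists were 1.13, 1.02, 1.01 and 0.53, with 7 of 11, 6 of 11, 5 of 9 and 1 of 12 genes past 2-fold in the higher direction. The sex-linked list had a median of 2.58, with 4 Y-linked genes past 2-fold above WT and Xist past 2-fold below it.

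The 8 genes covered almost the whole range of expression. The order in WT was Nppa, Nppb, Npr3, Bmp10, Corin, Npr2, Npr1 and Nppc. In Sox9 cKO Bmp10 stood above Npr3 and the order was otherwise the same. Nppa was the 29th most abundant of the 14697 transcripts in WT and the 19th in Sox9 cKO, while Nppc ranked 14543 and 13377. Since no replicate values were given, which neighbours in this order differ beyond their spread is unknown.

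**Figure D2:**
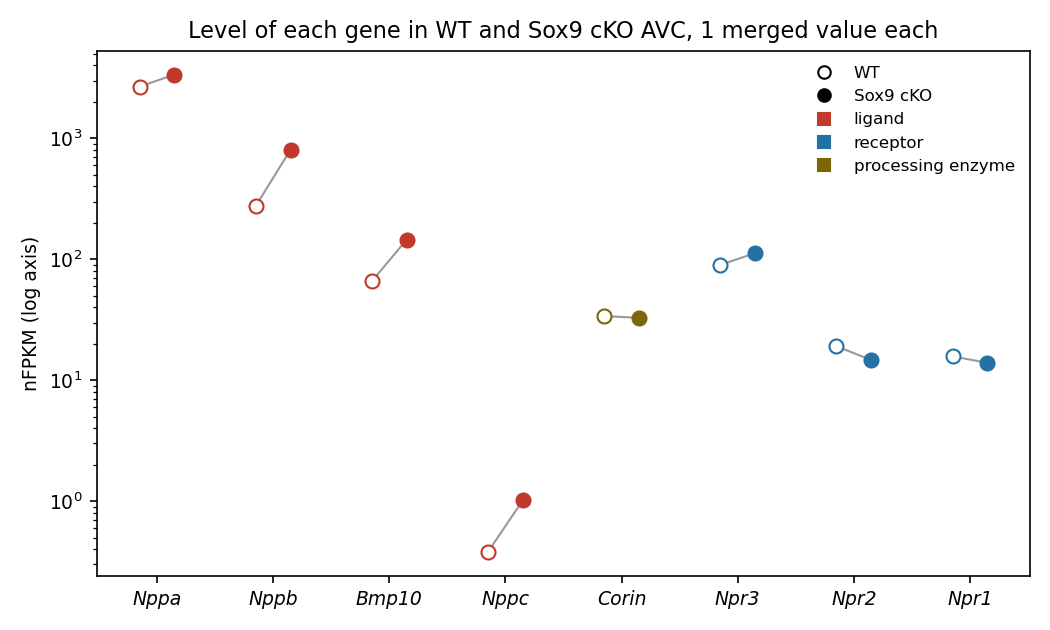
Level of each of the 8 genes in nFPKM on a log axis, with WT as open and Sox9 cKO as filled points, 1 merged value each and no error bar. Colours give the role of the gene. The 4 ligand genes and Npr3 are higher in Sox9 cKO, by the largest step on this log axis for Nppb (275 to 805 nFPKM). The step of Npr3 (89.8 to 112 nFPKM) is close to that of Nppa (2672 to 3361 nFPKM). Nppc lies near the floor (0.38 and 1.02 nFPKM). Npr2 is lower in Sox9 cKO (19.1 to 14.7 nFPKM), by a step about as large as that of Nppa. The steps of Npr1 and Corin are smaller.

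The cardiac ligands stood higher in Sox9 cKO, by unequal amounts. Nppb and Bmp10 were at least 2-fold higher, Nppa was not, and none of the 8 genes was at least 2-fold lower. Nppa (0.44) and the receptor gene Npr3 (0.43) had similar relative log2 ratios. Both lay within the middle 90% of all kept transcripts (-0.45 to 0.49). In the background of all kept transcripts, 0.834% stood 2-fold or more above WT and 0.674% stood 2-fold or more below it. The 2 of 8 genes past that threshold were known when the group was chosen, so nothing is read from their share.

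Nppb, the BNP gene, stood at 275 nFPKM in WT and 805 nFPKM in Sox9 cKO. The Sox9 cKO value was 2.92 times the WT value, and the relative log2 ratio was 1.65. Of all kept transcripts, 27 had a higher ratio. Among the 421 transcripts with a geometric mean level within 2-fold of that of Nppb, 2 had a higher ratio, and the middle 90% lay between -0.27 and 0.45. Nppb was the 413th most abundant transcript in WT and the 112th in Sox9 cKO.

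Bmp10, the trabecular ligand gene, stood at 65.8 nFPKM in WT and 145 nFPKM in Sox9 cKO, which is 2.20 times the WT level and a relative log2 ratio of 1.23. Of the 3012 transcripts of similar level, 8 had a higher ratio. Its rank by level was 2686 in WT and 943 in Sox9 cKO.

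Nppa, the ANP gene, stood at 2672 nFPKM in WT and 3361 nFPKM in Sox9 cKO, a relative log2 ratio of 0.44. In nFPKM this difference of 689 was the largest of the 8 genes, although its ratio was smaller than those of Nppb and Bmp10. Of all kept transcripts, 906 had a higher ratio, and of the 45 transcripts of similar level 5 did.

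Nppc, the CNP gene, was listed at 0.38 nFPKM in WT and 1.02 nFPKM in Sox9 cKO. Only the Sox9 cKO value reached the level at which transcripts were kept, so the gene passed that filter through the genotype in which it was higher. Its relative log2 ratio was 0.65 with a pseudocount of 1, 1.33 and past the 2-fold threshold with a pseudocount of 0.1, and 0.24 with a pseudocount of 5. Of 640 transcripts of similar level 61 had a higher ratio.

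The excess of ANP over BNP transcripts was smaller in Sox9 cKO. The level of Nppa was 9.70 times that of Nppb in WT and 4.18 times in Sox9 cKO. Nppb made up 9.34% of the summed nFPKM of the 3 peptide genes in WT and 19.3% in Sox9 cKO. The sum itself was 2947 nFPKM in WT and 4167 nFPKM in Sox9 cKO, or 0.307% and 0.434% of all nFPKM in the table. The level of Nppb was 4.18 times that of Bmp10 in WT and 5.54 times in Sox9 cKO.

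Nppa and Nppb are neighbours on chromosome 4, with no other protein-coding gene between them in the RefSeq gene table. The genes next to the pair were closer to the all-transcript median than Nppb. On the Nppb side, 2510039O18Rik (41.8 and 37.8 nFPKM in WT and Sox9 cKO) had a relative log2 ratio of -0.04, Plod1 of collagen cross-linking 0.13, and Mfn2 of mitochondrial fusion -0.04. On the Nppa side, Clcn6, a chloride transporter gene, stood at 17.1 and 20.2 nFPKM (0.33), and Agtrap, further along, had a relative log2 ratio of 0.05. Whether counting used the strand is not given in the sources, so it is unknown whether reads from overlapping genes were told apart. The direct neighbours of Bmp10, Gkn3 and Arhgap25, were listed at no more than 3.03 nFPKM in either genotype, with relative log2 ratios of -0.36 and -0.50.

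The transcripts nearest to Nppa, Nppb and Bmp10 in the plane of WT and Sox9 cKO levels, on the log2(nFPKM + 1) scale, were named over these 2 values alone. Only protein-coding transcripts were searched, and genes with a predicted or clone name were left out. Nearest to Nppa were Rpl41, a ribosomal protein gene, at a distance of 0.08, Atp5b of ATP synthase (0.24) and Myl3, a myosin light chain gene (0.26). Nearest to Bmp10 were the steroid dehydrogenase gene Hsd3b6 (0.02), the carbonic anhydrase gene Car2 (0.25) and the endothelial sialomucin gene Emcn (0.29). Among the transcripts searched Nppb had no close companion. Its nearest transcripts, the glucose transporter gene Slc2a1 (0.66), the glutathione peroxidase gene Gpx1 (0.74) and the type IV collagen gene Col4a1 (0.85), had smaller relative log2 ratios of 0.74, 0.62 and 0.49.

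**Figure D3:**
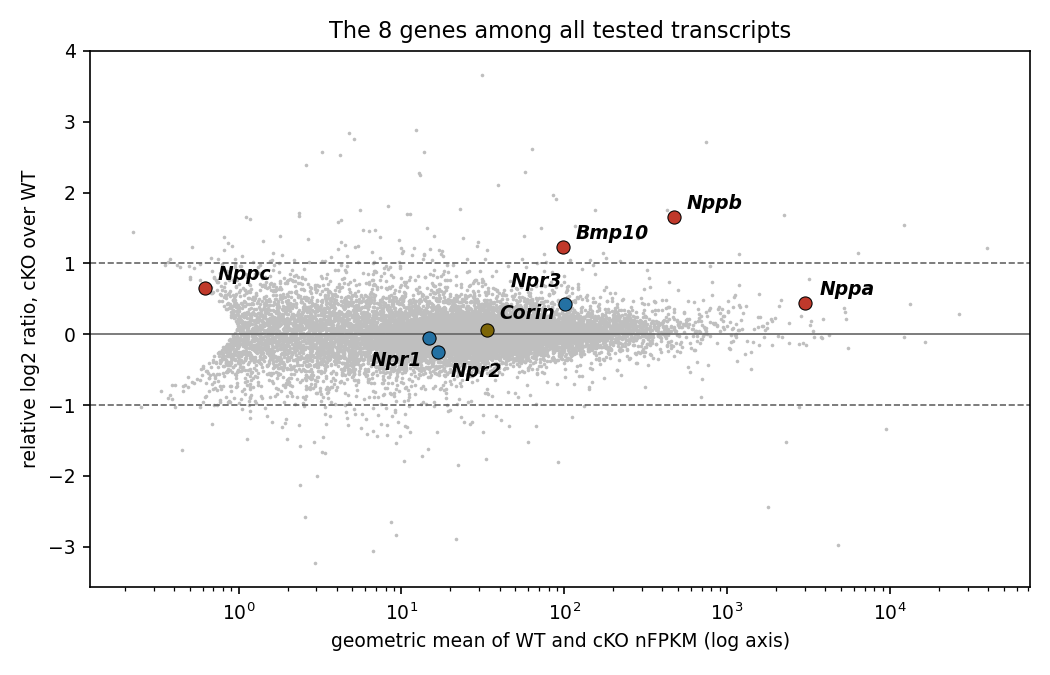
Relative log2 ratio of Sox9 cKO over WT against the geometric mean of the 2 nFPKM values (log axis) for all transcripts kept, in grey, with the 8 genes in colour by role. Dashed lines mark a 2-fold difference. Nppb at 1.65 and Bmp10 at 1.23 lie above the upper line, and the 3 receptors and Corin lie between -0.25 and 0.43.

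None of the 3 receptor genes reached a 2-fold difference. Npr3, the clearance receptor gene and the most abundant of the 3, stood at 89.8 nFPKM in WT and 112 nFPKM in Sox9 cKO, a relative log2 ratio of 0.43. Of the 2940 transcripts of similar level 128 had a higher ratio. Their middle 90% lay between -0.28 and 0.39, so Npr3 stood just above that range, though within that of all kept transcripts. Npr1, the ANP and BNP receptor gene, stood at 15.7 and 13.9 nFPKM (-0.06), and 38.9% of all transcripts had a lower ratio. Npr2, the CNP receptor gene, stood at 19.1 and 14.7 nFPKM, a relative log2 ratio of -0.25, with a lower ratio in 14.0% of all transcripts.

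The clearance receptor made up a larger share of receptor transcripts in Sox9 cKO. Npr3 held 72.1% of the summed receptor nFPKM in WT and 79.7% in Sox9 cKO. Its level was 2.58 times the sum of both cyclase receptors in WT and 3.93 times in Sox9 cKO. The summed level of Nppa and Nppb was 187 times that of Npr1 in WT and 299 times in Sox9 cKO, but 32.8 and 37.1 times that of Npr3. Npr3 is a known gene of endocardium, and the 13 endothelial markers had a median relative log2 ratio of 0.30 (0.19 without subtraction of the all-transcript median) with 11 above the all-transcript median and none 2-fold apart. Of these markers, 4 had a ratio at or above that of Npr3, Emcn (0.82) and Plvap (0.70) the highest, while Cldn5 stood at -0.59. The summed level of the endothelial markers was 1047 nFPKM in WT and 1226 nFPKM in Sox9 cKO, and their part in the Npr3 values was not tested. In bulk tissue, more cells of a type and more RNA per cell cannot be told apart.

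Corin, the membrane protease that cuts the ANP precursor, stood at 33.8 nFPKM in WT and 32.8 nFPKM in Sox9 cKO. Its relative log2 ratio was 0.06, and -0.04 without subtraction of the all-transcript median, so its direction depends on the scaling. The summed level of Nppa and Nppb was 87.1 times that of Corin in WT and 127 times in Sox9 cKO.

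Other genes of peptide processing, breakdown and cyclic GMP signalling stood close to the all-transcript median. Of 19 listed genes that were kept none was 2-fold apart, 6 were above the median and 13 below, and their median was -0.05. Mme, which encodes the peptide-degrading enzyme neprilysin, stood at 9.81 and 12.5 nFPKM in WT and Sox9 cKO (0.43). The phosphodiesterase gene Pde1a stood at 35.1 and 25.4 nFPKM (-0.35) and the soluble guanylyl cyclase subunit gene Gucy1a2 at 3.90 and 4.62 nFPKM (0.30). Furin (97.3 and 83.6 nFPKM, -0.11), a protease that cuts the BNP precursor, and the cyclic GMP-dependent kinase gene Prkg1 (33.1 and 28.0 nFPKM, -0.13) were named after their values were seen.

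Genes listed for BMP10 receptors, signalling and response did not share the ratio of the ligand. Of 17 kept genes none was 2-fold apart, 7 were above the all-transcript median and 10 below, with a median of -0.01. The receptor genes Acvrl1 (7.22 and 6.57 nFPKM in WT and Sox9 cKO, -0.01), Bmpr2 (77.8 and 84.2 nFPKM, 0.22) and Bmpr1a (152 and 167 nFPKM, 0.24) were named after their values were seen. The lowest ratios were those of Tcap (-0.59), a sarcomere gene whose product binds BMP10, and of the BMP response genes Id2 (281 and 175 nFPKM, -0.58) and Id1 (74.0 and 48.0 nFPKM, -0.51). Gdf2, which encodes the related ligand BMP9, was listed at 0.85 and 0.68 nFPKM and did not pass the filter.

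The ligand genes were also set beside genes of heart muscle. The 20 cardiomyocyte markers had a median of -0.04 and none was 2-fold apart. Myh6, an atrial myosin gene, had the lowest ratio at -0.49, and the sarcomere genes Ttn (0.47) and Nebl (0.43) the highest. None of the 20 had a ratio at or above that of Nppb or Bmp10, and 1 had a ratio at or above that of Nppa. Relative to the cardiomyocyte median, the log2 ratios were 1.69 for Nppb, 1.27 for Bmp10 and 0.47 for Nppa. The summed level of the cardiomyocyte markers was 31481 nFPKM in WT and 28350 nFPKM in Sox9 cKO.

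Chamber and trabecular genes had a median of 0.16, and of 0.06 without subtraction of the all-transcript median. Of 13 genes 10 were above the all-transcript median, 3 were below and none was 2-fold apart. The highest were the homeobox gene Irx5 (11.8 and 17.6 nFPKM in WT and Sox9 cKO, 0.65), the guidance factor gene Sema3a (31.2 and 39.3 nFPKM, 0.43) and the gap junction gene Gja1 (331 and 390 nFPKM, 0.34). Gja5, another gap junction gene that often marks trabecular muscle with Nppa, stood at 158 and 131 nFPKM (-0.16), and Smpx and Cited1 stood at 0.15 and 0.14. These 3 were named after their values were seen. The 6 ventricular markers had a median of 0.06, and -0.04 without subtraction of the all-transcript median. Hey2 (0.59), Mpped2 (0.21) and Myl3 (0.13) were the highest of them. The ventricular light chain gene Myl2 stood at 12815 and 11594 nFPKM. How much chamber muscle each AVC pool held was not tested.

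Of 9 AVC myocardium genes 1 was at least 2-fold lower and none 2-fold higher. The list median was -0.49, with 8 genes below the all-transcript median and Msx2 above it (0.20). The gene past 2-fold was Gjd3, which encodes a connexin (5.51 and 1.03 nFPKM in WT and Sox9 cKO, -1.58), and the calcium channel gene Cacna1g (16.2 and 7.62 nFPKM, -0.89) and Bmp2 (37.8 and 22.1 nFPKM, -0.64) followed. The repressor genes Tbx2 (20.1 and 13.0 nFPKM, -0.49) and Tbx3 (29.2 and 18.1 nFPKM, -0.56) were, like Msx2, named after their values were seen. All 9 atrial markers were below the all-transcript median, with a list median of -0.56, and 2 were at least 2-fold lower. The lowest was the transcription factor gene Nr2f1 (17.8 and 6.11 nFPKM, -1.30). Sln, which encodes a regulator of the calcium pump, stood at -0.72. The abundant Myl7 (4384 and 4040 nFPKM, -0.01) and Myl4 (3972 and 3588 nFPKM, -0.04) stood close to the all-transcript median. Both are also among the cardiomyocyte markers and were named after their values were seen. The summed level of the atrial list was 8594 nFPKM in WT and 7763 nFPKM in Sox9 cKO. The summed level of the AVC list was 294 nFPKM in WT and 223 nFPKM in Sox9 cKO. Cushion mesenchyme also expresses some of these genes, Tbx2 and Tbx3 among them. The 11 cushion mesenchyme markers had a median of -0.63, with 1 above the all-transcript median and 10 below. Papss2, Lum and Twist1 were at least 2-fold lower, while Dcn (0.01), Vcan (-0.03) and Col1a1 (-0.13) stood close to the all-transcript median. The summed level of the 11 markers was 3926 nFPKM in WT and 2538 nFPKM in Sox9 cKO. Shares of tissue and levels per cell cannot be told apart in these values.

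Known regulators of the peptide genes showed no 2-fold difference. Of 17 genes 5 were above and 12 below the all-transcript median, with a list median of -0.06. Hand2, a factor of ventricular muscle and cushions, stood at 94.1 and 59.7 nFPKM in WT and Sox9 cKO (-0.54). Tead1, which binds M-CAT elements, stood at 91.5 and 116 nFPKM (0.45) and Mef2c at 59.5 and 71.5 nFPKM (0.37). Gata4, whose product binds GATA elements, stood at 231 and 207 nFPKM (-0.05), and Gata6 of the same family at 142 and 109 nFPKM (-0.28). Nkx2-5 stood at 118 and 106 nFPKM (-0.05), Tbx5 at 76.5 and 61.5 nFPKM (-0.20) and Tbx20 at 540 and 407 nFPKM (-0.30). Gata4, Gata6, Nkx2-5, Tbx5 and Tbx20 were named after their values were seen.

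Of 13 kept genes known, like Nppa and Nppb, for a response to wall stress in heart muscle, 1 was at least 2-fold higher and none 2-fold lower. The list median was 0.43, with 11 genes above the all-transcript median and 2 below. Without subtraction of that median, 7 stood above their WT level and 6 below it, with a list median of 0.32. The relative median was 0.26 when transcripts with at least 3 nFPKM were required. Gdf15, a stress-induced ligand gene, stood at 0.31 and 2.15 nFPKM in WT and Sox9 cKO (1.37) and passed the filter through its Sox9 cKO value. Rcan1, a calcineurin target, stood at 149 and 220 nFPKM (0.67) and the skeletal actin gene Acta1 at 255 and 369 nFPKM (0.64). Ankrd1, a stretch-responsive gene of the sarcomere, stood at 958 and 1278 nFPKM (0.52), and Myh7 at 3445 and 3314 nFPKM (0.05). The 2 genes below the all-transcript median were Csrp3 (1589 and 1238 nFPKM, -0.25) and Atp2a2 (1145 and 987 nFPKM, -0.11). Ankrd1, Myh7, Csrp3 and Atp2a2 were named after their values were seen. The hypoxia and immediate early lists, whose medians are given with the Sox9 values, stood higher by median in the same pools. Of the 9 immediate early genes kept, 7 were above the all-transcript median and 2 below, Jun (-0.53) the lowest. Their median was 0.67 with a pseudocount of 5. The part of both lists in the peptide values was not tested.

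**Figure D4:**
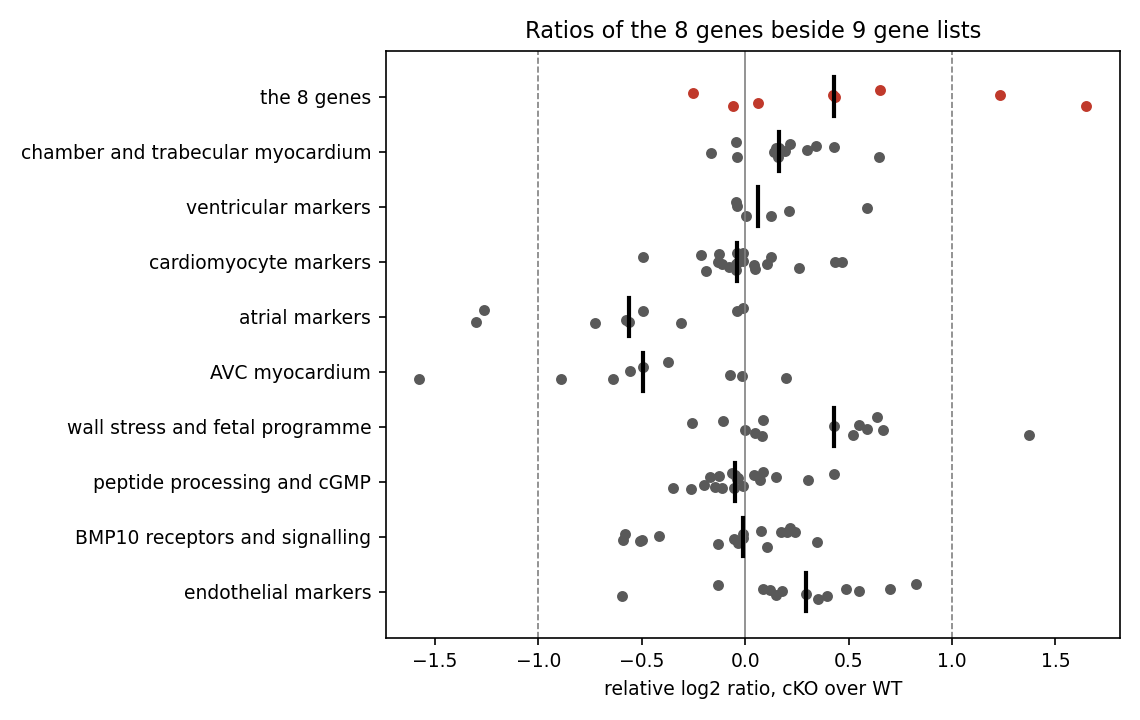
Relative log2 ratios of Sox9 cKO over WT for the 8 genes, in red, and for the kept genes of 9 lists, in grey, 1 point per gene, with a vertical bar at each median and dashed lines at a 2-fold difference. The medians of the atrial and AVC myocardium lists lie to the left (-0.56 and -0.49), and Nppb and Bmp10 lie to the right of every cardiomyocyte marker.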

How the data were processed

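Expression was analysed from 1 table with a merged value for the WT and the Sox9 cKO AVC pools, grouped by the genotype labels. The authors deposited FPKM normalized further (nFPKM) and merged over duplicates, per the file headers. Named in the submitters' processing notes, without versions or roles, are TopHat2, Cufflinks, edgeR and mm9. Not given in the sources used here are the normalization step, the transcript choice and the use of strand. The deposited log2 fold change of the authors served as an alternative only. Depth is unknown, so no intervals were given.

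Log2 ratios were computed with a pseudocount of 1 nFPKM, which understates ratios of low genes. Transcripts under 1 nFPKM in both genotypes, 904 in all, were left out. The median of -0.11 was subtracted. With 1 value per genotype no test was made, and a size of 2-fold was the threshold. The 16 gene lists and the members were chosen with earlier results of these data known. List genes to be named were those past 2-fold and the 3 with the largest ratios in either direction. For lists of other cell types and stress some were left as counts. A few genes that these rules name are not reported here. Of 8 members, 8 matched the RefSeq promoter table by symbol. SOX9 peak lists, which use mm9 positions, could not be placed relative to the genes and were not used here. Steps were tested on simulated data. Python 3.11.15, numpy 2.4.6, pandas 2.3.3 and matplotlib 3.10.9 were used. Alternatives were other pseudocounts, filters, centring, scaling and thresholds.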

Additional observations from a re-analysis of the deposited data

How the results depend on the processing

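Nppb and Bmp10 stayed at least 2-fold higher under all 8 alternatives for the ratio, with relative log2 ratios from 1.54 to 1.69 and from 1.13 to 1.27. Nppa (0.33 to 0.47) and Npr3 (0.32 to 0.46) stayed above 0, and Npr1 (-0.17 to -0.02) and Npr2 (-0.36 to -0.21) below 0, in each of them. Corin was above 0 in 7 and below in 1, without centring. Nppc ranged from 0.24 to 1.33 over 7 alternatives and was 2-fold higher with a pseudocount of 0.1; it was left out by a filter of at least 3 nFPKM. The number of transcripts at least 2-fold apart was 208, and 496 with a pseudocount of 0.1 and 81 with a pseudocount of 5. At least 1.5-fold apart were 864, and 3 of the 8 genes. The share of higher transcripts among those apart was 47.4% with a pseudocount of 0.1, 47.6% with the authors' deposited fold change and 45.3% with rescaling without globin genes. Of 112 list medians under alternatives, 105 were within 0.15 of their main value. Those further away were medians of the sex-linked, immediate early, erythroid and wall stress lists. No paired analysis was possible because each genotype has 1 merged value, and for the same reason no replicate could be left out. The planned search for SOX9 peaks near the genes was not run, since the peak positions are in mm9 and the reference used here is not. Depth behind the values is unknown.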
